A study of Mus musculus with 7 samples.

Results

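A set of 39 cell cycle and DNA replication genes was followed over all 7 arrays of a study of mouse ileum and colon. The set was chosen by name, as genes of DNA replication and mitosis, and 38 of the 39 had a probe set that the platform annotation pairs with a single gene, among 19938 genes measured that way. Ccnb1 had none under this rule and was not analysed here. A gene with several probe sets (3 of the 38) was represented by the brightest on average.

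The arrays were hybridised with total RNA from mice on a C57Bl6/129Sv background, all 3 months old. Atg4b knock-out (KO) mice, which lack a protease that processes the LC3 and GABARAP proteins of autophagosomes, were set against wild-type (WT) mice. Colon of mice given oral dextran sulfate sodium (DSS), which injures the colonic epithelium, for 7 days and then water for 3 days gave 2 KO arrays and 1 WT array. Untreated ileum gave 1 KO and 1 WT array, and untreated colon gave 1 KO and 1 WT array. The study asked what the loss of Atg4b does to transcripts of the intestine during colitis. Nothing in the labels ties an array to its own animal, and p-values therefore reflect the spread among arrays, which may be technical. Only KO DSS colon held 2 arrays. The spread in the fits therefore also takes in genotype differences that vary between conditions where the model holds them equal.

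Dividing cells license replication origins in G1, when the ORC complex, Cdc6 and Cdt1 load the Mcm2 to Mcm7 helicase onto DNA. In S phase the GINS complex activates that helicase, PCNA clamps the polymerases to DNA, and ribonucleotide reductase supplies deoxynucleotides. In mitosis Cdk1 with its cyclins, the Aurora and Polo kinases and the spindle checkpoint separate the chromosomes. In the healthy intestine most division takes place in the crypts, where stem cells and their rapidly dividing daughters renew the epithelium, and lymphoid tissue and inflammatory infiltrates also hold dividing cells.

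The deposited values are intensities, reported below as log2. Array medians lay between 121.4 and 126.45 on the linear scale. Precision is limited by the number of arrays: 5 of 6 groups had 1. Atg4b was at 5.39 to 5.45 in the 4 KO arrays and at 7.35 to 7.72 in the 3 WT arrays. The tissue labels were borne out by the enterocyte gene Sis, at 13.23 in KO and 12.71 in WT ileum and at 4.52 to 4.82 in the 5 colon arrays. Fabp2, another enterocyte gene, was at 13.25 in KO and 13.01 in WT ileum. It was at 10.68 in KO DSS replicate 1, against 7.59 to 8.42 in the other colon arrays. In 3 arrays, all WT, sex-linked transcripts contradicted the sex given in the labels. Xist was at 12.16 to 12.55 in the 3 DSS arrays and at 5.19 to 5.52 in the 4 untreated arrays, and Eif2s3y ran the other way (4.28 to 4.39 in DSS arrays, 9.39 to 9.77 in untreated arrays). DSS and the sex that these markers show therefore cannot be told apart for any gene below.

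Cell cycle genes were higher in DSS colon than in control colon. In limma, with genotype in the model, 17 of the 38 rose and none fell at an adjusted p under 0.05 (Benjamini-Hochberg over 19938 genes), against 7.2% of all genes higher and 3.43% lower. At an unadjusted p under 0.05, 31 of the 38 passed, as did 5245 of all 19938 genes. A positive difference was found for 37, with a median of 0.71 log2 units, where the median of all genes was -0.01. The range ran from -0.09 for Nusap1 to 1.70 for Rrm2, which corresponds to a 3.25-fold higher level, and 12 genes exceeded 1 log2 unit. All 3 DSS arrays lay above both control colons for 28 of the 38 (22.1% of all genes did so), and for none did all 3 lie below (18.0% of all genes). The 10 exceptions were Tk1, in the probe set used only, Pcna, Ccnb2, Ttk, Cdc20, Kif20a, Cenpe, Cenpf, Nusap1 and Mki67. The count rests on single arrays: it was 0 without either control colon, 1 without WT DSS colon, 2 without KO DSS replicate 2, 8 without either ileum array and 30 without KO DSS replicate 1. These refit counts are of genes that passed in limma. They are given without the calls over all genes, so the shifts cannot be read as particular to the cell cycle genes. In whole tissue a change in the number of dividing cells and a change in RNA per cell cannot be told apart.

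The rise went with other tissue changes in the same arrays. The mean of 13 smooth muscle markers was 10.53 and 9.57 in KO DSS replicates 1 and 2 and 8.99 in WT DSS colon, against 11.02 in KO and 11.10 in WT control colon. Summed over the list, the linear intensity of these markers was 8789 to 27166 in DSS colon and 39912 to 41349 in control colon, and no marker of the list was in the bottom quartile of genes throughout. Des (-1.97 ± 0.43), Acta2 (-1.18 ± 0.29) and Kcnmb1 (-1.35 ± 0.33) fell, and all 13 differences were negative. When the muscle mean was added to the model as a covariate, 0 of the 38 cell cycle genes passed in limma (5 at an unadjusted p under 0.05), their median difference was 0.21 and 28 were positive. Both control colons had a higher muscle mean than any DSS array, so this covariate also takes up part of the DSS difference. Of the 10 pan-leukocyte markers, 9 rose (7.2% of all genes), with Ptprc at 1.07 ± 0.22 and Fcer1g at 1.85 ± 0.36 (SE). The sum of the 10 markers was 6199 to 8512 in DSS colon against 3099 to 3881 in control colon. The part of these markers in the rise of the cell cycle genes was not tested.

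**Figure D1:**
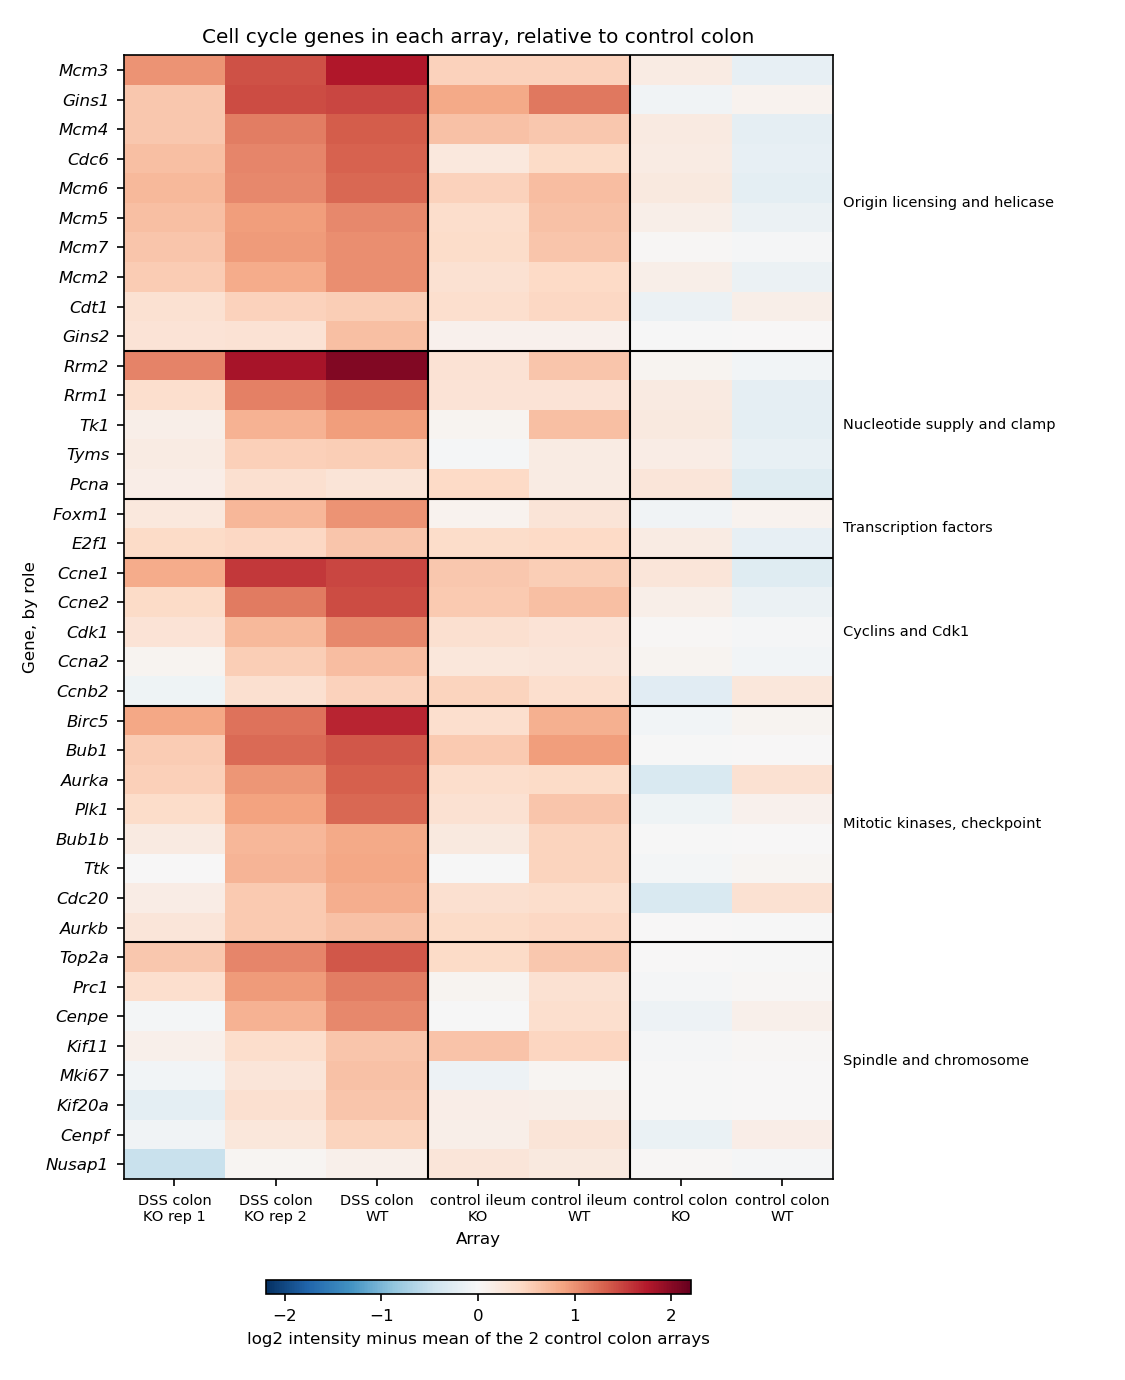
Each row is a gene, grouped by role, and each column an array, with colour giving the log2 intensity minus the mean of the 2 control colon arrays. Rrm2 is darkest in each of the 3 DSS columns, KO DSS replicate 1 is the lowest of the 3 for all 38 genes, and Nusap1 is lower in that array than in control colon.

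Origin licensing and helicase genes had the highest share of rises of any role. Of these 10 genes, 9 rose in DSS colon (7.2% of all genes), with a group median of 0.96. For all 10 every DSS array lay above both control colons (22.1% of all genes). Mcm3, a subunit of the replicative helicase, had log2 intensities of 7.99 and 8.41 in KO DSS replicates 1 and 2 and 8.76 in WT DSS colon, with 7.51 in both KO and WT ileum, against 7.17 in KO and 6.83 in WT control colon. The 3 DSS arrays were the highest, both control colons the lowest and the ileum arrays between. Its difference was 1.40 ± 0.23 log2 units (SE, 3 DSS against 2 control arrays, adjusted p = 0.0169 in limma). Gins1, a subunit of the GINS complex that activates the helicase, had 6.14 and 6.99 in KO DSS replicates 1 and 2 and 7.02 in WT DSS colon, with 6.39 in KO and 6.71 in WT ileum, against 5.47 in KO and 5.63 in WT control colon. Both control values were under the lower quartile over all genes, so its rise of 1.22 ± 0.24 (adjusted p = 0.0288) may be understated. KO DSS replicate 1 lay below both ileum arrays for this gene.

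The other helicase subunits rose by 0.82 ± 0.16 (Mcm2) to 1.03 ± 0.24 (Mcm4), with Mcm5 at 0.90 ± 0.16, Mcm6 at 1.03 ± 0.21 and Mcm7 at 0.88 ± 0.14. The helicase loaders Cdc6 and Cdt1 rose by 1.03 ± 0.21 and 0.48 ± 0.11. Gins2 stood at 0.45 ± 0.12 and did not pass (adjusted p = 0.0691).

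Of the 5 genes of nucleotide supply and the polymerase clamp, Rrm2 rose (7.2% of all genes did). Rrm2 encodes the regulatory subunit of ribonucleotide reductase, whose level is known to peak in S phase. It had 8.93 and 9.64 in KO DSS replicates 1 and 2 and 9.88 in WT DSS colon, with 8.15 in KO and 8.45 in WT ileum, against 7.89 in KO and 7.78 in WT control colon. Every DSS array exceeded all 4 untreated arrays, and the difference from control colon was 1.70 ± 0.25 (adjusted p = 0.0118). Rrm1, the catalytic subunit, had 9.66 and 10.39 in KO DSS replicates 1 and 2 and 10.52 in WT DSS colon, with 9.60 in KO and 9.59 in WT ileum, against 9.49 in KO and 9.09 in WT control colon. Replicate 1 lay close to the untreated arrays and the 0.91 ± 0.27 difference did not pass (adjusted p = 0.0884). The thymidylate-making enzymes Tk1 (0.65 ± 0.28) and Tyms (0.43 ± 0.17) did not pass either.

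Pcna and Mki67, both used as proliferation markers, and Nusap1 were singled out after their values were seen. Pcna, the polymerase clamp, had 10.92 and 11.12 in KO DSS replicates 1 and 2 and 11.06 in WT DSS colon, with 11.22 in KO and 10.95 in WT ileum, against 11.04 in KO and 10.52 in WT control colon. Only WT control colon stood apart, and the DSS difference was 0.22 ± 0.15 (adjusted p = 0.436). Mki67, the gene of the Ki-67 antigen, had 10.65 and 10.97 in KO DSS replicates 1 and 2 and 11.35 in WT DSS colon, with 10.60 in KO and 10.74 in WT ileum, against 10.70 in KO and 10.71 in WT control colon. KO DSS replicate 1 lay below both control colons, and the difference of 0.33 ± 0.17 did not pass (adjusted p = 0.281). Nusap1, a spindle microtubule binder, had 8.53 and 9.07 in KO DSS replicates 1 and 2 and 9.14 in WT DSS colon, with 9.28 in KO and 9.24 in WT ileum, against 9.05 in KO and 8.996 in WT control colon. It was the 1 gene of the 38 for which all 3 DSS arrays lay below both ileum arrays (19.4% of all genes).

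Neither cell cycle transcription factor passed. Foxm1, which drives mitotic genes, had 8.08 and 8.57 in KO DSS replicates 1 and 2 and 8.83 in WT DSS colon, with 7.93 in KO and 8.12 in WT ileum, against 7.76 in KO and 7.92 in WT control colon, a difference of 0.70 ± 0.17 (adjusted p = 0.0538). E2f1, which drives genes of S phase entry, had 7.62 and 7.66 in KO DSS replicates 1 and 2 and 7.81 in WT DSS colon, with 7.60 in KO and 7.64 in WT ileum, against 7.38 in KO and 7.03 in WT control colon, a difference of 0.49 ± 0.14 (adjusted p = 0.0754). For both genes the DSS arrays did not overlap with the control colons but did with the ileum arrays.

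Of 5 measured cyclin and Cdk genes, Ccne1 rose (7.2% of all genes did). Ccne1 encodes cyclin E1, which with Cdk2 takes cells into S phase. It had 8.33 and 9.05 in KO DSS replicates 1 and 2 and 8.98 in WT DSS colon, with 8.09 in KO and 8.05 in WT ileum, against 7.78 in KO and 7.23 in WT control colon, a difference of 1.27 ± 0.26 (adjusted p = 0.0322). The DSS arrays were above all untreated arrays. Ccne2, the second cyclin E gene, had 6.97 and 7.68 in KO DSS replicates 1 and 2 and 7.97 in WT DSS colon, with 7.12 in KO and 7.20 in WT ileum, against 6.66 in KO and 6.42 in WT control colon. Its 1.04 ± 0.27 did not pass (adjusted p = 0.0615), with replicate 1 below both ileum arrays. The mitotic kinase Cdk1 stood at 0.72 ± 0.20 (adjusted p = 0.0678), cyclin A2 (Ccna2) at 0.44 ± 0.18 and cyclin B2 (Ccnb2) at 0.30 ± 0.19, and none of these passed.

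Among 8 genes of mitotic kinases and the spindle checkpoint, 4 rose (7.2% of all genes) and the group median was 0.77. Birc5 encodes survivin, a subunit of the Aurora B complex. It had 8.22 and 8.57 in KO DSS replicates 1 and 2 and 9.05 in WT DSS colon, with 7.75 in KO and 8.15 in WT ileum, against 7.31 in KO and 7.43 in WT control colon. Each DSS array exceeded all untreated arrays, by 1.31 ± 0.17 against control colon (adjusted p = 0.00785), and Birc5 passed under 14 of 17 alternative settings. Bub1, a checkpoint kinase, had 8.67 and 9.36 in KO DSS replicates 1 and 2 and 9.48 in WT DSS colon, with 8.69 in KO and 9.03 in WT ileum, against 8.10 in KO and 8.13 in WT control colon, a rise of 1.11 ± 0.22 (adjusted p = 0.0277). KO DSS replicate 1 was at the level of the KO ileum. The kinases Aurka (1.01 ± 0.19) and Plk1 (0.91 ± 0.18) also rose. The checkpoint genes Bub1b (0.63 ± 0.18) and Ttk (0.60 ± 0.23), the anaphase activator Cdc20 (0.57 ± 0.18) and Aurkb (0.51 ± 0.13) did not pass.

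Spindle and chromosome genes had the smallest group median, 0.36, and 2 of 8 rose (7.2% of all genes). Top2a, the topoisomerase that untangles sister chromosomes, had 9.61 and 10.10 in KO DSS replicates 1 and 2 and 10.38 in WT DSS colon, with 9.44 in KO and 9.62 in WT ileum, against 9.04 in KO and 9.01 in WT control colon, a rise of 1.05 ± 0.19 (adjusted p = 0.0226). Prc1, which bundles microtubules of the central spindle, had 8.21 and 8.76 in KO DSS replicates 1 and 2 and 8.96 in WT DSS colon, with 7.89 in KO and 8.17 in WT ileum, against 7.80 in KO and 7.87 in WT control colon, a rise of 0.86 ± 0.19 (adjusted p = 0.0378). In both genes the DSS arrays lay above both control colons. The kinetochore motor Cenpe (0.67 ± 0.25), the spindle motor Kif11 (0.39 ± 0.15), the cytokinesis motor Kif20a (0.29 ± 0.21) and Cenpf (0.27 ± 0.14) did not pass, nor did Mki67 and Nusap1.

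**Figure D2:**
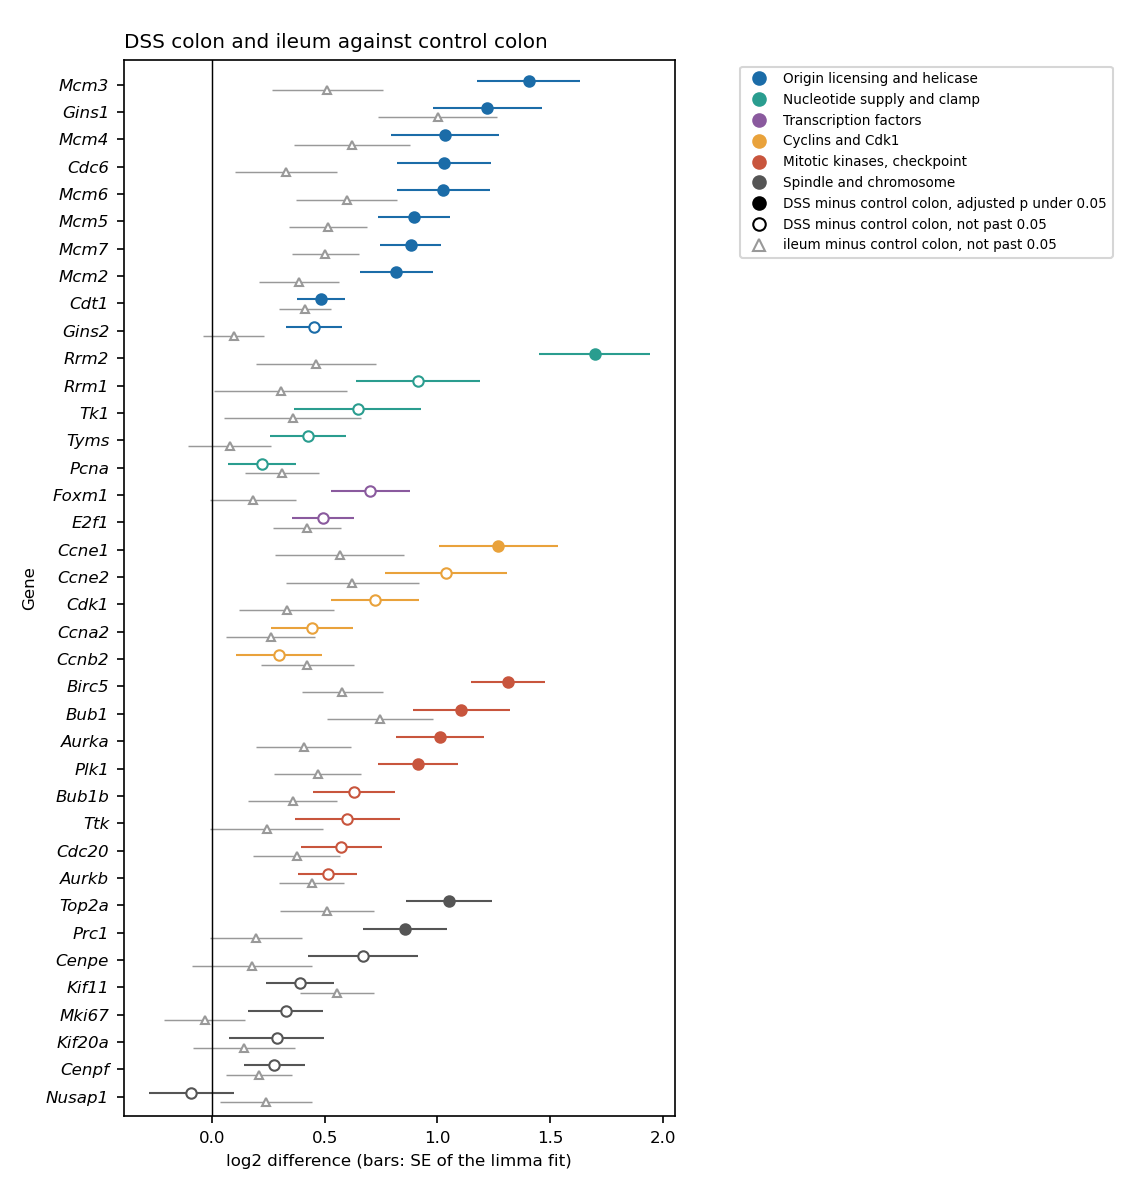
Circles give the DSS minus control colon difference and triangles the ileum minus control colon difference of each gene on the log2 scale, with bars for the SE of the limma fit and filled symbols for an adjusted p under 0.05. Filled circles stand for the 17 genes that rose in DSS colon, from 0.48 for Cdt1 to 1.70 for Rrm2, and no triangle is filled.

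Promoters of these genes were read for 3 short motifs, because the genes moved together and their transcription is known to be timed by E2F factors, which serve replication genes, and by the complex that binds the cell cycle homology region (CHR) of mitotic genes. RefSeq promoters (GRCm38.p6, 250 bases before to 50 after the start) were matched for 30 of the 38 genes by symbol. Counts are of genes, and a gene with several promoters counted where any of them held the motif. An E2F motif was read as TTCCCGC or the variants TTCGCGC and TTGCCGC and TTGGCGC, on either strand, overlapping matches included. It was in 10 of 30 genes (33.3%), against 10.9% of all 27025 genes with a promoter. By role it was in 6 of 7 licensing genes, 2 of 5 nucleotide supply genes, 1 of 7 spindle genes and 0 of 7 mitotic kinase and checkpoint genes. The CHR motif TTTGAA was in 13 of 30 (43.3%, against 20.2%). These included 5 of 7 mitotic kinase and checkpoint genes, 5 of 7 spindle genes and 1 of 7 licensing genes. The CCAAT box, read as CCAAT on either strand, was in 22 of 30 (73.3%, against 41.1%), and both CHR and CCAAT were in 13 of 30 (43.3%, against 8.97%). These matches are a description of the letters, and the base composition of the promoters was not matched.

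The 250 bases before the start are shown for 3 replication genes that rose (Rrm2, Mcm5, Mcm6), for Cdk1, which holds all 3 motifs, and for 2 mitotic genes, Top2a, which rose, and Cdc20, which did not pass. Sequences are from RefSeq, GRCm38.p6, 5′ to 3′ on the gene's strand, with matches to any of the 3 motifs in capitals (ATTGG and TTCAAA are CCAAT and TTTGAA on the other strand).
Rrm2 (chr12:24708004-24708253, plus strand): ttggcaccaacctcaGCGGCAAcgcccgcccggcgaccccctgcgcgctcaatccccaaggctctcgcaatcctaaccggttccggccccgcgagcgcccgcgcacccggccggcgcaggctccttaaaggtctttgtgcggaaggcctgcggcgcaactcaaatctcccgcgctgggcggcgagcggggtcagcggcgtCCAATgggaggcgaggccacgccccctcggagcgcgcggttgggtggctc
Mcm5 (chr8:75109259-75109508, plus strand): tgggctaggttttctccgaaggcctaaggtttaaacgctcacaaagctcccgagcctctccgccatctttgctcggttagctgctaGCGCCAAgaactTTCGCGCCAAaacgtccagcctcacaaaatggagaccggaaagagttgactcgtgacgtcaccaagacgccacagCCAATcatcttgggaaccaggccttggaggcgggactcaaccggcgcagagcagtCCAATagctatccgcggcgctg
Mcm6 (chr1:128359706-128359955, minus strand): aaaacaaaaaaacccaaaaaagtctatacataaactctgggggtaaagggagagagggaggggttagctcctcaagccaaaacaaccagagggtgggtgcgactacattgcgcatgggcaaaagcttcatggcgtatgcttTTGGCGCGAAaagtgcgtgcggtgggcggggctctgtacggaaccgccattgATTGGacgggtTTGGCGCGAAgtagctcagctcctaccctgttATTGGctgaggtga
Cdk1 (chr10:69352913-69353162, minus strand): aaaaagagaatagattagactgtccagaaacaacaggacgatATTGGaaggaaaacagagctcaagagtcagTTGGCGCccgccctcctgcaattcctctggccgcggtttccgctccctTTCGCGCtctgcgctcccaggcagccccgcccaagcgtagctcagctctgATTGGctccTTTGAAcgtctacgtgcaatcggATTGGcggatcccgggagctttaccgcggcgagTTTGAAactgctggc
Top2a (chr11:99024190-99024439, minus strand): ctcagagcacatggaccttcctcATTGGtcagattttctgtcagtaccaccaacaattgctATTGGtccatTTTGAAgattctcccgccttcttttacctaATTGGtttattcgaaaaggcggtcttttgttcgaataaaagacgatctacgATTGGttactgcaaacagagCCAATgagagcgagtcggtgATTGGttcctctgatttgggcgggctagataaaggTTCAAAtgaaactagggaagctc
Cdc20 (chr4:118437344-118437593, minus strand): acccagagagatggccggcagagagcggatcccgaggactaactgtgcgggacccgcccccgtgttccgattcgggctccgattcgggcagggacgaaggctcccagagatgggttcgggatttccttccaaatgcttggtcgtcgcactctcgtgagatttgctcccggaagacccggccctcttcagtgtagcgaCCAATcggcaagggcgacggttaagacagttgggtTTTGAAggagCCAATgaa
The Mcm6 stretch holds 4 E2F matches, in overlapping pairs, and 2 CCAAT boxes, that of Mcm5 holds 3 E2F matches and 2 CCAAT boxes, and neither holds a CHR motif. The Top2a stretch holds 6 CCAAT boxes and 2 CHR motifs and no E2F match, and that of Cdc20 holds 2 CCAAT boxes and 1 CHR motif. That of Cdk1 holds 2 E2F matches, 2 CHR motifs and 3 CCAAT boxes.

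Further genes of the same processes were described from 6 lists with 159 measured genes of 165, none of them among the 39. In DSS colon 40 of these 159 rose and 3 fell, and their median was 0.55, where 7.2% of all genes rose and 3.43% fell. Replication fork genes rose in 11 of 30, including the chromatin remodeller Hells (1.48 ± 0.27), Uhrf1, which maintains DNA methylation (1.15 ± 0.26), the single-strand binding subunit Rpa2 (1.06 ± 0.13) and the flap endonuclease Fen1 (1.04 ± 0.23). Other origin and helicase genes rose in 4 of 18, with the origin-firing kinase Cdc7 at 1.03 ± 0.12, while Orc1, at 1.08 ± 0.32, did not pass. Other mitosis genes rose in 11 of 52, among them Cks1b (1.34 ± 0.22), the chromokinesin Kif4 (1.08 ± 0.25) and the cytokinesis scaffold Anln (1.06 ± 0.20). In the list of G1 cyclins, Cdks, E2f and Myb genes 9 of 22 rose and 1 fell (Tfdp2, -0.53 ± 0.12), with E2f2 at 1.26 ± 0.21, cyclin D1 (Ccnd1) at 1.18 ± 0.20 and Mybl2 at 1.13 ± 0.20. S-phase repair genes rose in 4 of 18, led by the nuclease and helicase Dna2 (1.42 ± 0.21), Rad54l (1.22 ± 0.25) and the exonuclease Exo1 (1.07 ± 0.16).

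As a list, markers of crypt stem cells did not rise with the cell cycle genes. Of 16 measured, none was higher and 2 were lower in DSS colon (7.2% and 3.43% of all genes). The 2 were the Wnt targets Axin2 (-0.73 ± 0.13) and Znrf3 (-0.72 ± 0.14), and the list median was -0.51. Differences were negative for 12 and positive for 4, the widest positive one being Prom1 (0.83 ± 0.40, adjusted p = 0.255 in limma). The mean of the 16 markers was 8.79 and 8.40 in KO DSS replicates 1 and 2 and 8.30 in WT DSS colon, against 8.73 in KO and 8.92 in WT control colon. Lgr5, the receptor that marks crypt base stem cells, was at 7.998 and 6.67 in KO DSS replicates 1 and 2 and 6.33 in WT DSS colon, against 7.76 in KO and 8.76 in WT control colon, a difference of -1.31 ± 0.53 that did not pass (adjusted p = 0.182). Epithelial markers averaged 11.52 to 11.54 in DSS colon and 11.21 to 11.39 in control colon, with 1 of 14 higher (Krt20, 0.64 ± 0.11). B cell markers averaged 7.56 and 7.96 in KO DSS replicates 1 and 2 and 8.24 in WT DSS colon, against 7.78 in KO and 7.09 in WT control colon, and none of 9 passed.

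**Figure D3:**
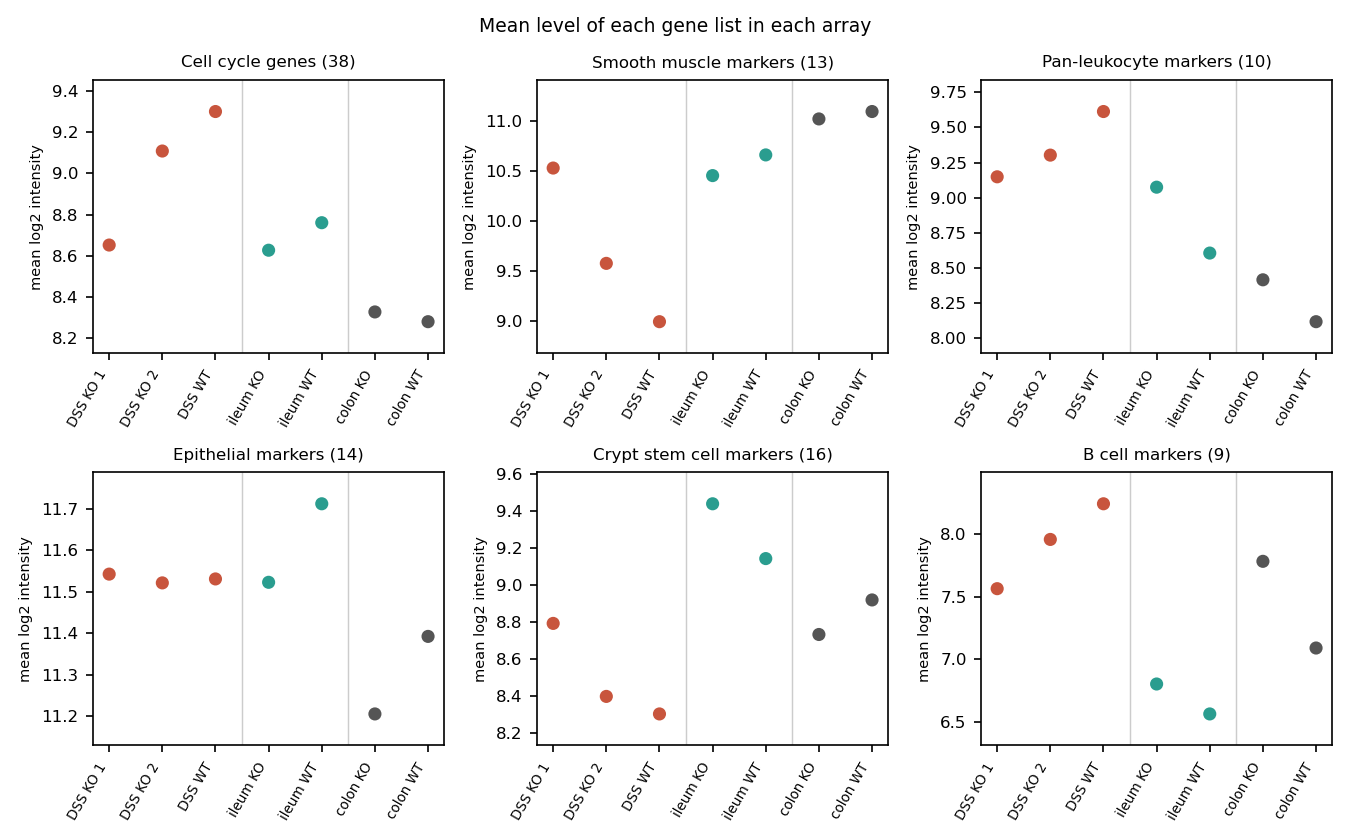
Each panel gives the mean log2 intensity of a gene list in each array (red, DSS colon; green, control ileum; grey, control colon), with the number of genes in brackets and an axis of its own. Cell cycle genes were at 8.65, 9.11 and 9.30 in the KO 1, KO 2 and WT DSS arrays, in the reverse order of smooth muscle markers (10.53, 9.57 and 8.99) and of crypt stem cell markers.

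Ileum was compared with control colon to see how these genes differ along the healthy gut. No gene of the 38 passed in limma (5.94% of all genes were higher and 3.22% lower), and 12 of the 38 had an unadjusted p under 0.05, as did 4404 of all 19938 genes. Of the 38, 37 were positive with a median of 0.40, where the median of all genes was -0.02. Both ileum arrays lay above both control colons for 31 of the 38 (25.8% of all genes), and the exceptions were Tyms, Tk1, Pcna, Ttk, Cenpe, Cenpf and Mki67. Tk1 was an exception only in the probe set used. The largest differences were those of Gins1 (1.00 ± 0.26, adjusted p = 0.0716), Bub1 (0.74 ± 0.24), Ccne2 (0.62 ± 0.29) and Mcm4 (0.62 ± 0.26). Without KO DSS replicate 1, which enters this comparison only through the shared estimate of the spread and the genotype term, 9 of the 38 passed. Smooth muscle markers averaged 10.46 in KO and 10.66 in WT ileum, against 11.02 in KO and 11.10 in WT control colon.

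From the lists of further genes, 10 of 159 were higher and 1 lower in ileum, where 5.94% of all genes were higher and 3.22% lower, so the share of higher genes was near that of all genes. The higher ones included E2f2 (1.26 ± 0.23), the primase-polymerase subunit Pola2 (0.95 ± 0.15), Mcm10 (0.88 ± 0.18) and Cdc25a, a phosphatase that activates Cdks (0.74 ± 0.14). Of the 16 crypt stem cell markers, Olfm4 (6.11 ± 0.13) and Axin2 (1.21 ± 0.14) were higher and Lrig1 (-0.75 ± 0.16) was lower in ileum.

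DSS colon and ileum were set side by side without a test. For 13 of the 38 genes all 3 DSS arrays lay above both ileum arrays (24.6% of all genes), and 7 of these were licensing genes (Mcm2, Mcm3, Mcm5, Mcm6, Mcm7, Cdc6 and Gins2). The others were Rrm1, Rrm2, Ccne1, Aurka, Birc5 and Prc1.

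The effect of the knockout was examined across all 3 conditions and in DSS colon. Across conditions none of the 38 genes passed in limma (0% of all genes were higher and 0.00502% lower), 5 had an unadjusted p under 0.05 (720 of all 19938 genes did), and 35 of 38 differences were negative with a median of -0.20. The widest were Cenpe (-0.47 ± 0.21), Aurka (-0.44 ± 0.16), Birc5 (-0.42 ± 0.14) and Plk1 (-0.40 ± 0.15), each with an adjusted p of 0.989. In DSS colon all 38 were lower in KO than in WT on average, with a median of -0.44 (0.01 over all genes), and both KO arrays lay below the WT array for 36 of 38, Pcna and Ccne1 being the exceptions (32.4% of all genes); for none did both lie above it (34.2% of all genes). None passed in limma (0% of all genes in either direction), and 4 had an unadjusted p under 0.05, as did 776 of all 19938 genes. The widest differences were Cenpe (-0.70 ± 0.32), Birc5 (-0.65 ± 0.21), Ccne2 (-0.65 ± 0.31) and Plk1 (-0.63 ± 0.23), each with an adjusted p of 1.

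The 2 KO DSS arrays differed in level. Replicate 1 lay below replicate 2 for all 38 genes (41.7% of all genes), and was the lowest of the 3 DSS arrays for all 38 genes (34.1% of all genes), with a median difference from the WT DSS array of -0.67, against -0.21 for replicate 2. Cenpe was at 7.79 and 8.59 in KO DSS replicates 1 and 2 and at 8.90 in WT DSS colon. Without replicate 2, Cenpe (-1.11, adjusted p = 0.0195) and Ccne2 (-1.01, adjusted p = 0.0385) passed in a fit with 1 residual degree of freedom, whereas their adjusted p over all 15 alternatives ran up to 1. Smooth muscle markers ran in the reverse order: their mean was 10.53 in KO DSS replicate 1, 9.57 in replicate 2 and 8.99 in WT DSS colon. A fit that also held the muscle mean gave a median of 0.09 over the 38 genes, 24 of them positive. Both KO DSS arrays had a higher muscle mean than the WT DSS array, so this covariate also takes up part of the knockout difference. Other cell type markers also differed in KO DSS colon, where none passed. Pan-leukocyte markers were lower in KO than in WT for 10 of 10 (median -0.35, 4 at an unadjusted p under 0.05), B cell markers for 9 of 9 (median -0.51, 3 at an unadjusted p under 0.05), and fibroblast markers were higher for 10 of 10 (median 0.63, 7 at an unadjusted p under 0.05). Smooth muscle markers were higher for 13 of 13, with a median of 1.19. What share these had in the difference was not tested.

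Control tissues gave single-array differences, which have no test. In ileum 28 of the 38 genes were lower in KO than in WT (52.7% of all genes) and 10 were higher (46.6%), with a median of -0.12. In control colon 20 were higher and 18 lower in KO (41.0% and 58.6% of all genes). All 5 nucleotide supply and clamp genes, 7 of 10 licensing genes and 4 of 5 cyclin and Cdk genes were higher in KO. Of the mitotic kinase and checkpoint genes 7 of 8 were lower, with a median of -0.10, and of the spindle genes 6 of 8, with a median of -0.025. The median of all genes in this pair was -0.05, so the spindle genes were not lower than genes at large. Ccne1 differed by 0.55, Pcna by 0.52, Mcm6 by 0.44 and Rrm1 by 0.40, and on the other side stood Aurka at -0.67, Cdc20 at -0.65 and Ccnb2 at -0.51. For Tk1 the 2 probe sets disagreed, with 8.63 in KO and 8.18 in WT control colon in the one used and 8.22 in KO and 8.33 in WT in the other.

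The change in the knockout effect between DSS colon and controls was tested as an interaction. It was negative for 37 of 38 genes with a median of -0.39 (0.03 over all genes), none passed in limma (0% of all genes), and 1 had an unadjusted p under 0.05, as did 639 of all 19938 genes. Markers of other cell types differed alongside it, none past the threshold: the interaction was negative for 10 of 10 pan-leukocyte markers (median -0.71, 7 at an unadjusted p under 0.05) and 9 of 9 B cell markers (median -0.77, 5 at an unadjusted p under 0.05), and positive for 13 of 13 smooth muscle markers (median 1.36, 3 at an unadjusted p under 0.05). Their part in it was not tested. The widest cell cycle genes were Mcm3 (-0.73 ± 0.30), Ccne2 (-0.73 ± 0.40), Rrm1 (-0.70 ± 0.41) and Mcm4 (-0.70 ± 0.33). The pattern of KO above WT in control colon with both KO arrays below WT in DSS colon held for 18 of 38 genes (11.2% of all genes), 7 of them licensing genes. Taken alone, the control colon part held for 20 of 38 (41.0% of all genes) and the DSS part for 36 of 38 (32.4%). The excess over all genes thus lies mainly in the DSS part, and the count is no separate evidence of a reversed effect.

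DSS and control colon were also set side by side within each genotype, with no test. In KO both DSS arrays were above the control for 33 of 38 (40.6% of all genes), with a median of 0.31 for replicate 1 and 0.80 for replicate 2. The exceptions were Tk1, in the probe set used only, Pcna, Kif20a, Nusap1 and Mki67. In WT, 38 of 38 genes were higher in DSS colon than in control colon (46.8% of all genes), with a median of 1.01. Licensing genes had medians of 0.49 in KO replicate 1, 0.87 in KO replicate 2 and 1.28 in WT, and spindle genes had medians of 0.07 in KO replicate 1, 0.40 in KO replicate 2 and 0.62 in WT.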

How the data were processed

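RNA of mouse intestine was hybridised to 7 one-colour Affymetrix arrays, per the labels' protocols. The authors deposited one linear intensity per probe set and array; how they summarised and normalized it is not stated in the labels, and log2 was taken here. Of 35512 probe sets, 21789 had 1 symbol in the platform annotation, which gave 19938 genes. Models were fitted with limma 3.58.1 in R 4.3.3 on all genes, with Benjamini-Hochberg adjustment and a threshold of 0.05. The first held condition and genotype (3 residual degrees of freedom), the second separate genotype effects in controls and DSS colon (2). Values with ± are SEs of the fit. The fits were checked only for returning known differences in simulated data with independent noise of the same size for every gene. That check does not cover array-wide shifts or the sex seen in the arrays. Members, roles and lists were chosen with earlier results of these data known. Named genes were the members past the threshold (up to 10 each way), the 4 widest others, the 2 widest of each role and up to 4 per further list. Marker lists described are a selection, and the part of any cell type in the members' levels was not tested. Among the remaining cell type lists the DSS medians ran from -0.45 (mature colonocytes) to 2.08 (neutrophils). Alternatives covered normalization, filters, probe sets, variance model, covariates and left-out arrays. Figures were drawn with matplotlib 3.10.9.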

Additional observations from a re-analysis of the deposited data

Results flagged for a closer look

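Mcm4, Rrm1, Cdk1 and Nusap1 were flagged by the sign alone of single-array differences. The knockout difference was negative in both KO DSS arrays and positive in both untreated tissues. The ileum differences were small, from 0.0093 (Rrm1) to 0.05 (Mcm4), and the share of all genes with this pattern was not counted. For Mcm4 the KO minus WT difference was -0.74 and -0.20 in KO DSS replicates 1 and 2, against 0.05 in ileum and 0.40 in control colon, with an interaction of -0.70. For Rrm1 it was -0.86 and -0.13 in DSS colon, against 0.0093 in ileum and 0.40 in control colon, with an interaction of -0.70. For Cdk1 it was -0.76 and -0.35 in DSS colon, against 0.04 in both untreated tissues, with an interaction of -0.60. For Nusap1 it was -0.61 and -0.07 in DSS colon, against 0.04 in ileum and 0.05 in control colon, with an interaction of -0.39. The interaction did not pass for any of them in limma (adjusted p = 0.9999 each).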

How the results depend on the processing

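The count of 17 cell cycle genes that rose in DSS colon lay between 14 and 20 after centring each array, leaving out dim genes, averaging probe sets, testing all probe sets, a variance trend, labelled sex or an offset of 16. Sex-linked transcripts contradicted the labelled sex in the WT arrays. That setting therefore does not adjust for the sex these transcripts show, which cannot be told apart from DSS. It was 11 after quantile normalization, 8 with colon arrays alone and 0 with the smooth muscle mean as a covariate. Leaving out single arrays gave 0 to 30: 0 without KO or without WT control colon (27 and 18 at an unadjusted p under 0.05), 1 without WT DSS colon (Birc5), 2 without KO DSS replicate 2 (Rrm2 and Birc5), 8 without either ileum array and 30 without KO DSS replicate 1. The median stayed between 0.55 and 0.90 when single arrays were left out. Each fit without 1 array had 2 residual degrees of freedom, and the cause of these shifts was not tested. Refit counts, here and above, are given without the calls over all genes and cannot be read as particular to these genes. The interaction could not be fitted with labelled sex in the model. In ileum the count of 0 became 1 without dim genes and 0 to 9 when single arrays were left out. For the knockout effect in DSS colon it was 0 to 2 when single arrays were left out, and could not be fitted without the WT DSS array. With the smooth muscle mean as a covariate Rrm1 turned to -0.0077 in the DSS comparison, Cenpe to 0.17 and Ccne2 to 0.12 in the knockout effect in DSS colon, and Ccne2 to 0.14 and Rrm1 to 0.18 in the interaction. No paired analysis was possible because the labels number replicates in 1 group only.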

Other observations

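Genes that restrain the cell cycle were mixed. Of 19 measured Cdk inhibitor, retinoblastoma and p53 pathway genes, 1 rose and 2 fell in DSS colon, with a median of 0.10, where 7.2% of all genes rose and 3.43% fell. The Cdk4 and Cdk6 inhibitor Cdkn2b fell by 0.91 ± 0.11 on the log2 scale (SE, adjusted p = 0.00795 in limma), the antiproliferative gene Btg1 fell by 0.57 ± 0.12, and the stress gene Gadd45b rose by 0.89 ± 0.15. In ileum 2 of the 19 were higher than in control colon, Rb1, the gene of the retinoblastoma protein, by 1.10 ± 0.13 and Cdkn2b by 0.99 ± 0.12, and Btg1 was lower (-0.57 ± 0.13), where 5.94% of all genes were higher and 3.22% lower. Counts this small do not set the list apart from all genes.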
